A study of Mus musculus with 8 samples.

Results

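FOXO transcription factors and the ubiquitin ligases of muscle wasting were followed in soleus muscle through 10 genes: the factors Foxo1, Foxo3 and Foxo4, the muscle ligases Trim63 (MuRF1), Fbxo32 (atrogin-1), Fbxo30 (MUSA1) and Fbxo40, and the more widely expressed ligases Cblb, Nedd4 and Traf6. Every array probe that carries 1 of these gene names was taken, which gave 26 of 56605 probes and 10 of 37074 gene names. The samples fall into 2 groups of 4. Mice of the P. gingivalis group (labelled Pg) received cells of Porphyromonas gingivalis, a bacterium of human gum disease, by feeding needle in 100 µL of saline, and mice of the saline group (labelled Co) received the saline alone. Both groups consisted of male C57BL/6J mice on a high-fat diet, without any transgene or deletion named, 8 weeks old at the start, given their treatment over 6 weeks and 14 weeks old at sampling. The series asks which genes of skeletal muscle respond to the swallowed bacterium. The bacterial dose and strain are not given in the sources used here, and the labels leave it unsaid whether each sample came from its own mouse. The p-values therefore reflect the spread among these samples, which may be technical.

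FOXO proteins are held in the cytoplasm when insulin and growth factors activate the kinase Akt, and enter the nucleus when that signal weakens. In wasting muscle they switch on genes of protein breakdown, among them Trim63 and Fbxo32, whose products mark muscle proteins with ubiquitin for the proteasome. Much FOXO control acts on the protein, by phosphorylation, acetylation and location, which mRNA arrays do not measure.

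Each value below is the log2 of a probe's processed signal minus the 75th percentile of its array, so 0 is the brightness of that percentile, and a difference of 1 is a doubling. Probes differ in brightness for reasons other than transcript number, so values are compared between arrays for 1 probe and not between probes. A single slide, scanned once, carried the 8 arrays, with P. gingivalis samples in 1 row and saline samples in the other, so row and group cannot be told apart. That percentile lay at a signal of 648 to 738 on P. gingivalis arrays, against 696 to 764 on saline arrays, in arbitrary units. P. gingivalis arrays had 34857 to 35400 probes well above background, against 30210 to 34111 for saline arrays, and the part of this gap in the results was not tested. The tissue showed slow muscle markers throughout: the mean log2 value of 9 slow fibre genes was 8.07 to 8.15 in P. gingivalis samples and 7.92 to 8.09 in saline samples. Fast fibre genes were more uneven, with P. gingivalis 3 at 6.58 and saline 1 at 6.09 as the lowest arrays of their groups. Soleus was sampled whole, so fewer cells of a type and less RNA per cell cannot be told apart.

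A probe entered the test if at least 4 arrays read it well above background, which kept 25 of the 26 and at least 1 for every gene. The probe left out was A_55_P2113031 of Foxo4, well above background on 1 P. gingivalis array and 0 saline arrays. With limma, 0 of the 25 probes passed an adjusted p of 0.05, against 0.163% of all 33756 kept probes, and their adjusted p ran from 0.0659 to 0.991. At an unadjusted p under 0.05 there were 7 member probes, 5 higher and 2 lower in P. gingivalis samples, where 20.6% of all kept probes reached that level (12.0% higher and 8.62% lower). For 5 member probes, 4 higher and 1 lower, the 2 groups were fully separate, against 14.1% of all kept probes (8.73% higher and 5.35% lower). The median difference was 0.23 over the 25 probes and 0.0056 over all kept probes, and 16 of the 25 were above 0, against 51.0% of all. That median was 0.06 without saline 2, 0.12 without P. gingivalis 1 and 0.08 with another background correction, normexp. The P. gingivalis group minus the saline group gives each difference, by the sample labels. Each of the 8 value columns of the authors' deposited table equals the array labelled with the other group and the same number. The fold changes in the authors' deposited table had the opposite sign for 18 of the 19 member probes it lists, and the same sign for Nedd4 probe A_65_P05631, at -0.0077 there and -0.06 here. Neither source could be shown to be the right one here.

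**Figure D1:**
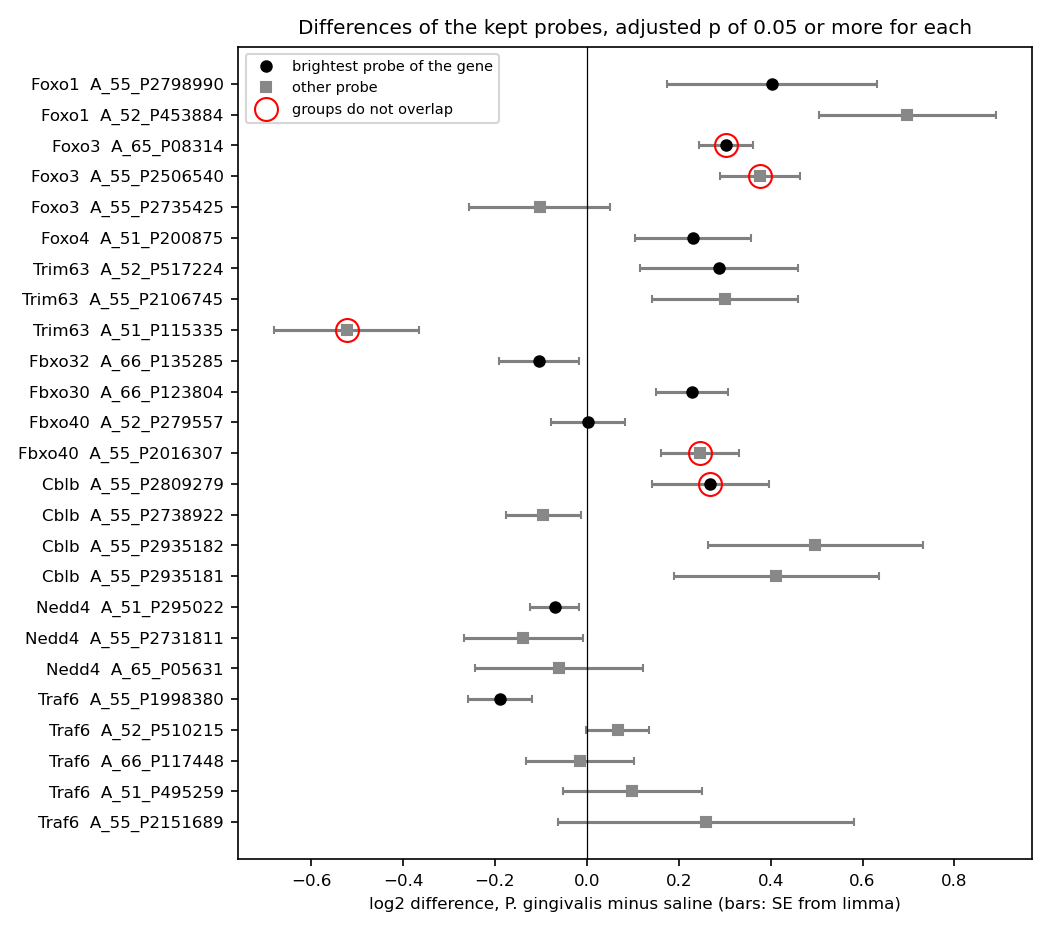
Log2 difference, P. gingivalis minus saline, of the 25 kept probes of the 10 genes, with the standard error from limma as bars (n = 4 and 4). Filled circles are each gene's brightest probe, squares its other probes, and red rings mark the 5 probes whose groups do not overlap; the differences run from -0.52 (Trim63) to 0.70 (Foxo1).

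The FOXO factors had the largest share of higher probes: 5 of their 6 kept probes were above 0, with a median of 0.34, and 3 had an unadjusted p under 0.05. Foxo3, the factor best known in muscle for driving both atrophy ligases and autophagy genes, came nearest to the threshold. Its 2 leading probes and the third, which did not follow them, are told apart by the first 30 bases of each, given here 5′ to 3′ as the scanner files hold them. All lie on the minus strand of chromosome 10 in build mm9. The sources used here hold no gene models of that build, so exon, intron or UTR is not assigned to any probe.
A_65_P08314, chr10:41901997-41902056: aagaaaaaagttgcatgaatgaaaacaacc
A_55_P2506540, chr10:41916349-41916408: aactttgactccctcatctccacacagaac
A_55_P2735425, chr10:41994961-41995020: agctcggccatggtgatcggtggcggcgtg

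The brightest Foxo3 probe, A_65_P08314, had values of 0.30, 0.24, 0.15 and 0.25 in P. gingivalis 1 to 4, against -0.12, -0.08, 0.01 and -0.08 in saline 1 to 4. Every P. gingivalis sample lay above every saline sample, with saline 3 the nearest. The difference was 0.30 ± 0.06 (SE, n = 4 and 4), a 1.23-fold higher signal, with limma's adjusted p = 0.0659. Leaving out single arrays moved it only between 0.28 and 0.33.

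The second Foxo3 probe, A_55_P2506540, 14352 bases away, read -2.70, -2.88, -2.91 and -2.67 in P. gingivalis samples, against -3.22, -3.04, -3.11 and -3.30 in saline samples. These groups did not overlap either. The difference was 0.38 ± 0.09 (SE), adjusted p = 0.0844, and 0.18 with normexp. The third probe, A_55_P2735425, lies 92964 bases from the brightest and differed by -0.10 ± 0.15 (SE), adjusted p = 0.732. Its values spanned -4.89 to -4.21 in P. gingivalis samples, against -4.50 to -4.29 in saline samples, and the sign turned to 0.06 under quantile normalization, 0.05 under median centring and 0.03 without P. gingivalis 4.

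The Foxo3 result sits close enough to the threshold that the processing decides the call. A_65_P08314 had an adjusted p of 0.0417 with normexp, 0.0469 with quantile normalization, 0.0458 when only probes above background on all 8 arrays were tested, and 0.0337 with a trended and robust variance. In these fits 2.40%, 2.08%, 1.87% and 3.08% of all tested probes passed too. With no filter on dim probes both leading Foxo3 probes passed, with 14.9% of all probes. Under median centring, which moved the median of all kept probes to 0.15, the passing member probes were both of these, A_52_P453884 of Foxo1, A_55_P2016307 of Fbxo40 and the Fbxo30 probe, with 13.5% of all probes. The authors' deposited table gives A_65_P08314 a log2 difference of 0.324 in size, with an adjusted p of 0.0665, the smallest of its 19 member probes, of which 0 passed, against 1.53% of its 28250 rows.

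Foxo1, which represses muscle growth and fuels the switch to fat use in fasting, was measured by 2 probes of 1 RefSeq transcript that start 2343 bases apart on the plus strand of chromosome 3. Their first 30 bases are given because the size of the Foxo1 difference depended on the probe.
A_55_P2798990, chr3:52150946-52151005: tgacagcaggaactgaggagcattccaaag
A_52_P453884, chr3:52153289-52153348: ttctgggagaatgttcgctttctggtctat

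The brightest, A_55_P2798990, stood at 3.99, 3.71, 3.20 and 3.25 in P. gingivalis samples, against 3.08, 2.80, 3.62 and 3.03 in saline samples. P. gingivalis 1 and 2 were the highest, but saline 3 lay above P. gingivalis 3 and 4. The difference was 0.40 ± 0.23 (SE), adjusted p = 0.357, and 0.25 without P. gingivalis 1.

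The other Foxo1 probe, A_52_P453884, is singled out after its values were seen, since it had the largest difference of the 25. It read 3.07, 2.98, 2.58 and 2.45 in P. gingivalis samples, against 2.08, 1.71, 2.47 and 2.03 in saline samples. Only saline 3 reached into the P. gingivalis range, just above P. gingivalis 4. The difference was 0.70 ± 0.19 (SE), a 1.62-fold higher signal, with an unadjusted p of 0.0069 and an adjusted p of 0.113 by limma. The authors' deposited table gives this probe a log2 difference of 0.541 in size and an adjusted p of 0.165.

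Foxo4, a less studied member that shares the DNA-binding domain, had values of -2.94, -2.93, -3.16 and -3.21 in P. gingivalis samples, against -3.22, -3.06, -3.28 and -3.60 in saline samples at its kept probe A_51_P200875 (chrX:98454216-98454275). The groups overlapped, and saline 4 was the lowest array. The difference was 0.23 ± 0.13 (SE), adjusted p = 0.343, and 0.13 without saline 4.

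**Figure D2:**
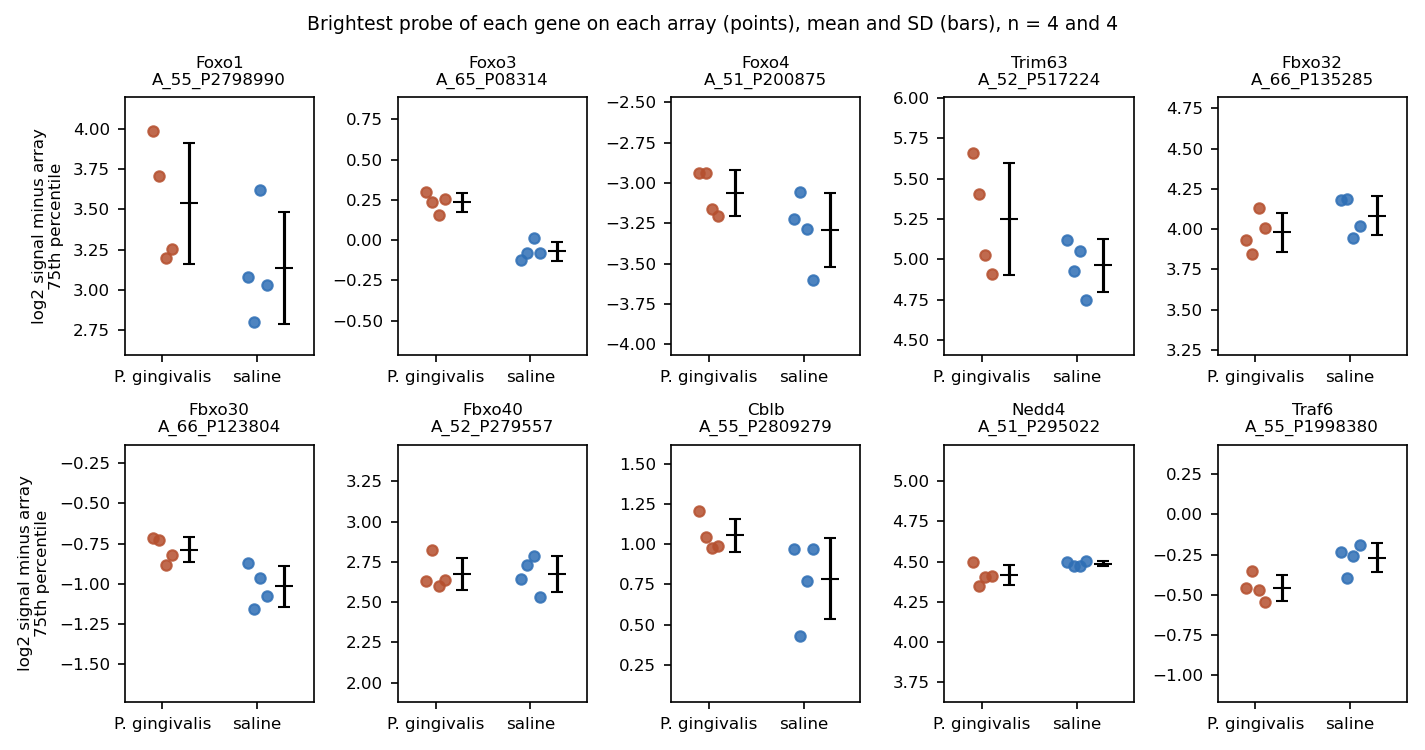
Log2 signal minus the array's 75th percentile (vertical axis, each panel spanning the same 1.6 units) of the brightest kept probe of each of the 10 genes on the 4 P. gingivalis arrays (left) and the 4 saline arrays (right), with mean and SD as bars. Foxo3 and, by a narrow margin, Cblb are the genes whose groups do not overlap here, while Fbxo40 and Nedd4 lie almost level.

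Trim63 and Fbxo32, the pair of ligases known to be induced in many forms of muscle wasting, had differences of opposite sign at their brightest probes, and neither passed the threshold. Trim63 encodes a ligase bound to the sarcomere that targets myosin and other thick filament proteins. Its 3 probes lie on the plus strand of chromosome 4 in build mm9, and their first 30 bases are shown because 1 of them went the other way. The files tie A_52_P517224 and A_55_P2106745 to RefSeq transcript NM_001039048, and A_51_P115335 to another transcript, ENSMUST00000134164.
A_51_P115335, chr4:133873219-133873278: aaacagacaaacaaacaaaaaaccgatcca
A_55_P2106745, chr4:133881557-133881616: atggactactttactctggacttagaacac
A_52_P517224, chr4:133885025-133885084: ccaaaacgtcacaggacacttttctacgtt

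The brightest Trim63 probe, A_52_P517224, had values of 5.66, 5.40, 5.02 and 4.91 in P. gingivalis samples, against 5.12, 4.93, 5.05 and 4.75 in saline samples. P. gingivalis 1 and 2 stood above the rest and the other P. gingivalis samples lay among the saline samples. The difference was 0.29 ± 0.17 (SE), adjusted p = 0.384, and 0.15 without P. gingivalis 1.

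Probe A_55_P2106745, 3468 bases upstream, was likewise highest in P. gingivalis 1 and 2, with 3.82, 3.74, 3.34 and 3.20 in P. gingivalis samples, against 3.31, 3.23, 3.38 and 2.97 in saline samples. Its difference was 0.30 ± 0.16 (SE), adjusted p = 0.328. Probe A_51_P115335, which lies a further 8338 bases upstream, read 0.50, 0.31, -0.23 and 0.08 in P. gingivalis samples, against 0.83, 0.58, 0.80 and 0.54 in saline samples.

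At A_51_P115335 every P. gingivalis sample was below every saline sample, the only member probe of the 25 with that order. The difference was -0.52 ± 0.16 (SE), a 0.696-fold signal, with an unadjusted p of 0.0105 and an adjusted p of 0.130 by limma. It was -0.35 without saline 1 and P. gingivalis 3, the arrays low in fast fibre genes, which were chosen after the data had been seen. Of its 60 bases 29 are A, against 26 at A_65_P08314 of Foxo3, and 17 and 16 at A_52_P517224 and A_55_P2106745. The part of base content in any difference was not tested.

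Within each array, A_51_P115335 minus A_52_P517224 averaged -5.09 in P. gingivalis samples, against -4.27 in saline samples, a comparison that does not depend on how arrays are scaled. The change in this distance was -0.81, with an exact two-sided permutation p of 0.0286 over 70 assignments of the 8 arrays, the smallest they allow. Adjusted over 15 such probe pairs the p was 0.107. For A_55_P2106745 the distance from A_52_P517224 moved by 0.01 (exact permutation p = 0.886).

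**Figure D3:**
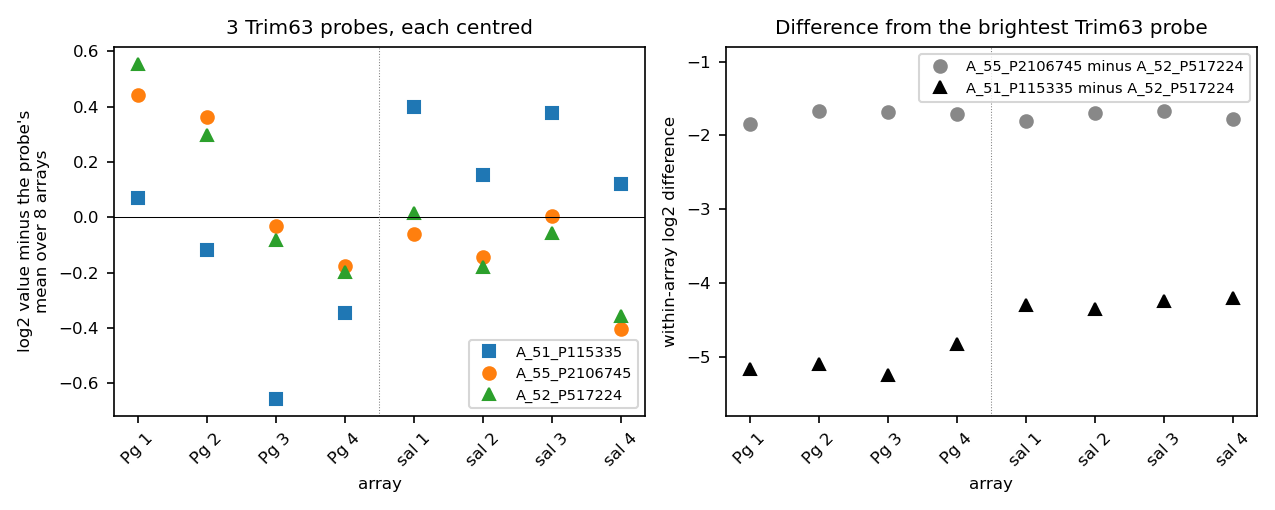
Left, the 3 Trim63 probes on each array (Pg, P. gingivalis; sal, saline), each as log2 value minus its own mean over the 8 arrays. Right, the within-array log2 difference of each other probe from A_52_P517224: A_51_P115335 averages -5.09 on P. gingivalis arrays and -4.27 on saline arrays, while A_55_P2106745 stays level.

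Fbxo32 encodes the substrate-binding part of a ligase complex that targets the initiation factor eIF3f and MyoD. Its single probe, A_66_P135285 (chr15:58007497-58007556, minus strand), stood at 3.93, 3.85, 4.13 and 4.01 in P. gingivalis samples, against 4.18, 4.19, 3.95 and 4.02 in saline samples. The groups overlapped, with saline 1 and 2 highest and P. gingivalis 2 lowest. The difference was -0.10 ± 0.09 (SE), adjusted p = 0.533, with -0.06 without P. gingivalis 2, -0.07 without saline 2, -0.18 with the table's processing rebuilt and 0.05 under median centring.

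Fbxo30, a ligase component that BMP signalling restrains in mouse muscle, was read by 1 probe, A_66_P123804, whose 60 bases match positions 3704 bases from end to end on chromosome 10 (chr10:11011329-11015032). It had -0.72, -0.73, -0.88 and -0.82 in P. gingivalis samples, against -0.87, -1.15, -0.96 and -1.08 in saline samples. Only P. gingivalis 3 fell below a saline sample, saline 1. The difference was 0.23 ± 0.08 (SE), with an unadjusted p of 0.0200 and an adjusted p of 0.166.

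Fbxo40, a muscle-restricted ligase component that in mouse muscle targets the insulin receptor substrate IRS1, gave probe-dependent values. Its brightest probe, A_52_P279557, read 2.63, 2.83, 2.60 and 2.64 in P. gingivalis samples, against 2.64, 2.73, 2.79 and 2.53 in saline samples, a difference of 0.0019 ± 0.08 (SE), adjusted p = 0.991. The other, A_55_P2016307, starts 1664 bases away and read -0.21, 0.04, -0.29 and -0.25 in P. gingivalis samples, against -0.34, -0.42, -0.50 and -0.44 in saline samples.

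At A_55_P2016307 the groups did not overlap, P. gingivalis 2 being the highest array. The difference was 0.25 ± 0.08 (SE), with an unadjusted p of 0.0200 and an adjusted p of 0.166. The distance between the 2 Fbxo40 probes within each array changed by 0.24 (exact permutation p = 0.0286, adjusted p = 0.107 over the 15 pairs).

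Among the 7 kept probes of the muscle ligases, 5 were higher and 2 lower, with a median of 0.23. The 12 kept probes of Cblb, Nedd4 and Traf6 divided evenly, 6 higher and 6 lower, with a median of 0.02. Only 1 of the 12 had an unadjusted p under 0.05.

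Cblb, a ligase that in unloaded muscle degrades IRS1, had 4 kept probes with differences from -0.10 to 0.50. The brightest, A_55_P2809279 (chr16:52208004-52208063), read 1.20, 1.05, 0.97 and 0.99 in P. gingivalis samples, against 0.97, 0.43, 0.77 and 0.97 in saline samples. The groups did not overlap, but P. gingivalis 3 and saline 1 and 4 were almost equal, and saline 2 stood far below the others. The difference was 0.27 ± 0.13 (SE), adjusted p = 0.279, and 0.15 without saline 2.

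Probes A_55_P2935182 and A_55_P2935181 of Cblb, tied to the clone AK045005 and starting 60 bases apart, differed by 0.50 ± 0.23 and 0.41 ± 0.22 (SE). They lie 157105 and 157045 bases from the brightest probe, and being adjacent they do not count as separate evidence. The second was 0.23 without saline 2. The fourth probe, A_55_P2738922, 2575 bases from the brightest, differed by -0.10 ± 0.08 (SE) and took the other sign, 0.05, under median centring.

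Nedd4, a ligase of membrane proteins that responds to muscle unloading and denervation, was almost level. Its brightest probe, A_51_P295022 (chr9:72590466-72590525), had 4.50, 4.35, 4.41 and 4.41 in P. gingivalis samples, against 4.50, 4.47, 4.47 and 4.50 in saline samples. The saline samples lay within a narrow band, and P. gingivalis 1 fell inside it. The difference was -0.07 ± 0.05 (SE), adjusted p = 0.487, and took the other sign, 0.08, under median centring. The other probes differed by -0.14 and -0.06, each within 2 standard errors (0.13 and 0.18) of 0, and also took the other sign under median centring (0.01 and 0.09).

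Traf6, a ligase that passes signals from Toll-like and interleukin-1 receptors to NF-kB and is needed for full atrophy in mouse muscle, had 5 kept probes with differences from -0.19 to 0.26. The brightest, A_55_P1998380 (chr2:101519206-101519265), read -0.46, -0.35, -0.47 and -0.55 in P. gingivalis samples, against -0.23, -0.40, -0.26 and -0.19 in saline samples. Only P. gingivalis 2 and saline 2 crossed. The difference was -0.19 ± 0.07 (SE), with an unadjusted p of 0.0262 and an adjusted p of 0.184.

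That probe is tied to the clone AK009110, and the 2 kept probes tied to the RefSeq transcript NM_009424 did not follow it. They differed by 0.07 ± 0.07 (A_52_P510215) and -0.02 ± 0.12 (A_66_P117448), and the mean of all Traf6 probes differed by 0.04. Within arrays, the distance of A_52_P510215 from the brightest probe changed by 0.26 (exact permutation p = 0.0286, adjusted p = 0.107). The dimmest kept probe, A_55_P2151689, was well above background on 3 P. gingivalis arrays and 1 saline array, and its 0.26 ± 0.32 (SE) became 0.03 without P. gingivalis 1.

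Over all 15 within-array pairs, 4 reached the smallest exact p of 0.0286: 1 pair each of Foxo1 (a change of 0.29), Trim63, Fbxo40 and Traf6. Each had an adjusted p of 0.107, so 0 pairs passed.

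Across the 8 arrays, Foxo1 correlated with the 2 atrophy ligases in opposite directions. Foxo1 and Trim63 had a Pearson r of 0.83 (exact permutation p = 0.0077, adjusted over 6 relations p = 0.0403) and a Spearman rho of 0.71 (exact permutation p = 0.0576, adjusted 0.139). Without P. gingivalis 1 and 2, the arrays farthest from the Foxo1 median, r was 0.37 over 6 arrays, so its size depended on those samples. Leaving them out also narrows the range of Foxo1, and the part of this in the drop was not tested. Foxo1 and Fbxo32 had an r of -0.83 (exact permutation p = 0.0134, adjusted p = 0.0403) and a rho of -0.90 (exact permutation p = 0.0046, adjusted p = 0.0274), with an r of -0.76 without the same arrays.

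Taken as deviations from the group means, r was 0.77 for Foxo1 with Trim63 and -0.78 for Foxo1 with Fbxo32, and within a group of 4 it was not computed. Under median centring the Fbxo32 relation was -0.41 (adjusted p = 0.481) and the Trim63 relation 0.88. With 1 array left out, r was 0.68 to 0.90 for Trim63 and -0.88 to -0.76 for Fbxo32. The adjusted p was then over the threshold without P. gingivalis 1, 2, 3 or 4 or saline 3 for Trim63, and without any of these or saline 1 or 2 for Fbxo32. Values on 1 array share its RNA and its scaling.

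Of the other 4 relations, 0 passed after adjustment. Foxo3 had an r of 0.61 with Trim63 (Spearman rho 0.36) and -0.64 with Fbxo32 (rho -0.69), each with an adjusted permutation p of 0.141 for r. Foxo4 had 0.78 with Trim63 (rho 0.60, adjusted permutation p of r 0.0544) and -0.21 with Fbxo32 (rho -0.33, adjusted permutation p of r 0.634).

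**Figure D4:**
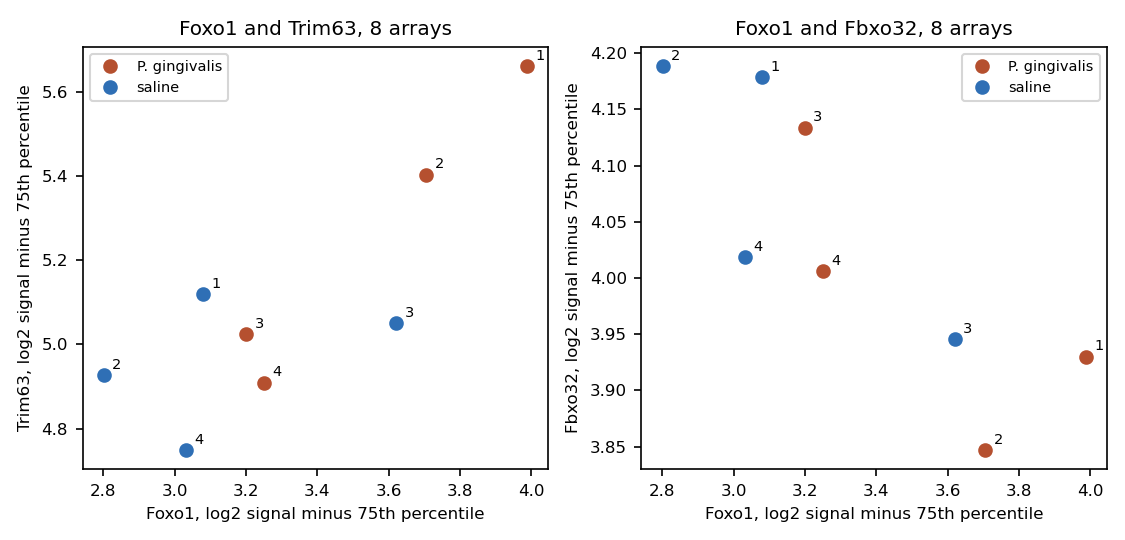
Log2 signal minus the array's 75th percentile of Foxo1 (A_55_P2798990, horizontal) against Trim63 (left) and Fbxo32 (right) on the 8 arrays, numbered by replicate. P. gingivalis 1 and 2 lie at the upper right for Trim63 (r = 0.83) and at the lower right for Fbxo32 (r = -0.83).

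Profiles most like each member, by Pearson r over the 8 arrays among about 28860 probes above background on all of them, are given as a description. For Foxo3 they were Rragd, a Rag GTPase of amino acid signalling (0.991), the zinc finger gene Zfp30 (0.990) and Faf1 (0.990). For Fbxo32 they were Bhlhe40, a clock-linked repressor (0.973), Snx11, a sorting nexin (0.952), and Cyp2s1, a cytochrome P450 (0.951). For Trim63 they were Gm10765 (0.987) and probes A_30_P01018623 (0.983) and A_55_P2173039 (0.979), which the files tie to no gene symbol.

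Because FOXO factors bind DNA at a known core, GTAAACA, the promoters of the members were searched for it on both strands, over 250 bases before and 50 after the start, in the RefSeq table of GRCm38.p6. The table held 10 promoters of 8 members, and Foxo4 and Fbxo32 had none in it. Only the Trim63 promoter held the core, as TGTTTAC with its first base at -194, and 3.65% of 32851 promoters in the table hold it. The same promoter has a TATAAA at -31, as 13.6% of the promoters do. Its 250 bases before the start (chr4:134314870-134315119, plus strand, GRCm38.p6, not the build of the probes) are shown with both matches in capitals.
Trim63 promoter: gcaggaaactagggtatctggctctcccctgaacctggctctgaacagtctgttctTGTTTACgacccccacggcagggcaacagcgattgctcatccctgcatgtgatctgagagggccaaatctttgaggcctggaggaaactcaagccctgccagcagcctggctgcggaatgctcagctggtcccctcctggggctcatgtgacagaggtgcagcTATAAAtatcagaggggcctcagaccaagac

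Around the members, 8 lists of pathway genes held 145 measured genes and 297 kept probes, and 1 probe passed the threshold. That probe was A_52_P352277 of Smad3, which carries myostatin, activin and TGF-beta signals. It rose to 0.25, 0.44, 0.36 and 0.32 in P. gingivalis samples, against -0.27, -0.36, -0.12 and -0.15 in saline samples, with no overlap. The difference was 0.57 ± 0.07 (SE), with limma's adjusted p = 0.0454. The brighter Smad3 probe, A_55_P2101001, differed by 0.19 ± 0.08 (SE), adjusted p = 0.232. The A_52_P352277 call was lost whichever array was left out. By brightest probe, 44 of the 145 genes (30.3%) had an unadjusted p under 0.05, where 19.1% of 22298 genes did (9.66% higher and 9.43% lower), 47.7% of those genes were above 0, and their median difference was -0.0109.

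**Figure D5:**
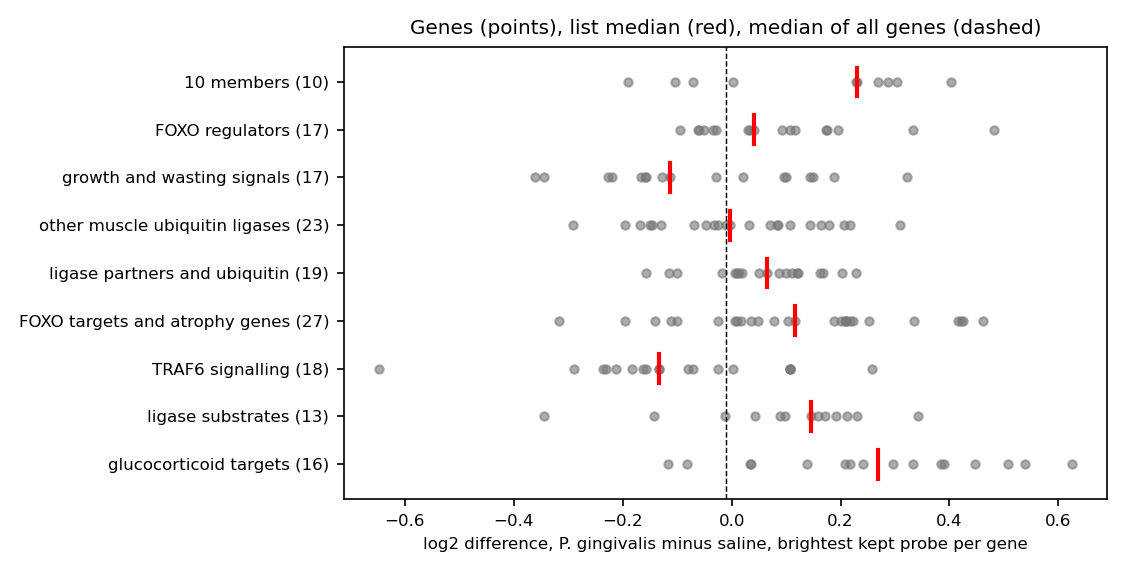
Log2 difference, P. gingivalis minus saline, of the brightest kept probe of each gene (points) in the 10 members and 8 pathway lists, with list medians in red and the median of all genes as a dashed line. Glucocorticoid targets have a median of 0.27 and TRAF6 signalling genes one of -0.13.

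Regulators of FOXO proteins were more often higher than lower, 11 against 6 of 17 kept genes, with a median of 0.04, and 5 of them, all higher, had an unadjusted p under 0.05. In this and the other lists, a gene's value is that of its brightest kept probe. Ep300 and Crebbp, the acetyltransferases p300 and CBP that acetylate FOXO proteins, differed by 0.48 ± 0.09 (SE, adjusted p = 0.0656) and 0.17 ± 0.06 (SE, adjusted p = 0.187) by limma. Every P. gingivalis sample was above every saline sample at both probes, for Crebbp only just, with P. gingivalis 3 at 3.823 and saline 3 at 3.820. The 2 other Ep300 probes differed by only 0.08 and 0.13, and the 2 other Crebbp probes by 0.18 and 0.24. Ppp2ca, a phosphatase subunit that can reverse Akt's phosphorylation, was at 0.19 and Pik3r1, the regulatory subunit of PI3-kinase, at 0.33. Skp2 was on the array but not well enough above background to be kept.

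Signals of growth and wasting upstream of FOXO had 7 genes higher and 10 lower of 17, with a median of -0.11. The insulin receptor substrate Irs1 stood at 2.93, 2.71, 3.26 and 2.94 in P. gingivalis samples, against 3.19, 3.53, 3.25 and 3.26 in saline samples. P. gingivalis 3 alone lay within the saline range, and the difference was -0.35 ± 0.13 (SE), adjusted p = 0.187. Acvr1b and Acvr2b, receptors for activin and myostatin, were at 0.32 and -0.23. Their other probes were at 0.42 for Acvr1b and 0.28 for Acvr2b, so the Acvr2b probes differed in sign.

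Genes that FOXO factors control in muscle or that rise in atrophy had 21 of 27 higher, with a median of 0.12, and 9 had an unadjusted p under 0.05, 7 higher and 2 lower. Txnip, a thioredoxin inhibitor that FOXO1 and glucose both regulate, had 7.25, 7.02, 6.89 and 6.95 in P. gingivalis samples, against 6.53, 6.68, 6.76 and 6.48 in saline samples. The groups did not overlap, and the difference was 0.42 ± 0.10 (SE), adjusted p = 0.0908. Klf10, a TGF-beta-responsive factor, was at 0.46 and Cat, catalase, at 0.21. The brightest probe of Atg4b, a protease of autophagosome formation, differed by -0.32 ± 0.07 (SE), adjusted p = 0.0779, with no overlap. Its 3 other probes ran from -0.16 to 0.20 and gave no common direction.

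Targets of the glucocorticoid receptor, which shares Trim63 as a target with FOXO1, had 14 of 16 higher and a median of 0.27, with 6 genes higher and 0 lower at an unadjusted p under 0.05. Tsc22d3 (GILZ) stood at 4.97, 4.87, 4.60 and 5.06 in P. gingivalis samples, against 4.06, 4.27, 4.55 and 4.46 in saline samples. P. gingivalis 3 and saline 3 were the closest, and the difference was 0.54 ± 0.14 (SE), adjusted p = 0.0988. Klf15 was at 0.39, Cebpb at 0.30 and Angptl4 at 0.51. The mean log2 value of the list was 4.62, 4.50, 4.29 and 4.37 in P. gingivalis samples, against 4.12, 3.99, 4.44 and 4.18 in saline samples. P. gingivalis 1 and saline 3, the arrays with the highest Foxo1 of their groups, were also highest here. Both led their groups for FOXO targets too, at 3.75 and 3.63. Saline 3 led the saline samples in every pathway list but growth and wasting signals and ligase substrates. A link of these levels to Foxo1 was not tested. Pdk4, Sgk1, Mt2 and Pik3r1 stand on the glucocorticoid list and on others.

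Genes of the TRAF6 pathway leaned lower, 13 of 18, with a median of -0.13, and 9 had an unadjusted p under 0.05, 8 lower and 1 higher. Tnfaip3, the NF-kB inhibitor A20, had -2.56, -2.65, -2.54 and -2.02 in P. gingivalis samples, against -1.54, -1.87, -1.84 and -1.92 in saline samples, with no overlap. The difference was -0.65 ± 0.15 (SE), adjusted p = 0.0865. Map3k7, the kinase TAK1 that TRAF6 activates, differed by -0.24 ± 0.06 (SE, adjusted p = 0.0950) and Rela, the p65 subunit of NF-kB, by -0.23 ± 0.06 (SE, adjusted p = 0.109). Ikbkg, the NEMO subunit, was at 0.26. Other probes of Map3k7, Rela and Ikbkg did not show the differences, with -0.02 and 0.14 for Map3k7, 0.01 for Rela, and -0.05 and 0.0021 for Ikbkg. Tnfaip3 had no other kept probe.

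Most markers of white blood cells had lower values, none past the threshold. Neutrophil markers had 7 of 8 kept genes lower, with a mean log2 value of -1.98 to -1.70 in P. gingivalis samples, against -1.51 to -0.71 in saline samples, and Ngp and Retnlg were not kept. S100a8, S100a9 and Cxcr2 differed by -2.21, -2.10 and -1.45, while the other 5 genes lay between -0.24 and 0.07, and the list's median was -0.24. S100a9 had -2.79, -2.97, -2.24 and -2.93 in P. gingivalis samples, against 1.13, 0.66, -2.27 and -2.01 in saline samples. S100a8 was likewise highest in saline 1 and 2, and both genes had overlapping groups. Cxcr2, the dimmest kept gene of the list, overlapped too. It had -6.75, -5.05, -6.41 and -6.19 in P. gingivalis samples, against -5.08, -4.45, -4.15 and -4.94 in saline samples. Signal over background limits such a dim probe, and the part of background in its difference was not tested. Macrophage markers had 9 of 11 lower, with a mean of -0.37 to 0.31 in P. gingivalis samples, against -0.40 to 0.88 in saline samples. Their part in the TRAF6 pathway values was not tested. Endothelial markers had 7 of 10 lower and 3 higher, with a mean of 1.62 to 1.96 in P. gingivalis samples, against 1.87 to 1.99 in saline samples. Egfl7, Kdr and Ptprb differed by -0.40, -0.55 and -0.29 without overlap (limma's adjusted p = 0.0602, 0.0627 and 0.0722), and the other endothelial genes overlapped. Red blood cell markers had 8 of 8 higher, with a mean of 4.34 to 5.06 in P. gingivalis samples, against 3.13 to 4.93 in saline samples. The mean ranges of the endothelial and red blood cell lists overlapped between the groups, as did those of the macrophage, adipocyte, fibroblast and Schwann cell lists.

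Other ubiquitin ligases of muscle were balanced, 11 higher and 12 lower of 23, with a median of -0.0026. Fbxw7 differed by -0.29 ± 0.07 (SE), adjusted p = 0.102, and Smurf1 by -0.15, while Asb2, which restrains muscle mass in mice, was at 0.21 and Birc2, a ligase of NF-kB signalling, at 0.16. These 4 had groups that did not overlap, where 13.4% of all genes did.

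Ligase partners, conjugating enzymes and ubiquitin had 15 of 19 higher, with a median of 0.06 and 3 genes at an unadjusted p under 0.05. The ubiquitin gene Ubb was at 0.16, the deubiquitinase Usp19 at 0.20, the conjugating enzyme Ube2d1 at 0.23 and Ube2j1 at -0.16, with its other probe at 0.07.

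Known substrates of the ligases had 10 of 13 higher, with a median of 0.15 and 5 at an unadjusted p under 0.05, 4 higher and 1 lower. Ckm, muscle creatine kinase and a MuRF1 substrate, stood at 7.68, 7.74, 7.58 and 7.61 in P. gingivalis samples, against 7.35, 7.48, 7.51 and 7.35 in saline samples. The groups did not overlap, and the difference was 0.23 ± 0.07 (SE), adjusted p = 0.123. The myosin light chains Myl2 and Myl1 were at 0.21 and 0.19, with the 3 other Myl1 probes at -0.04 to 0.37. Irs1, given above, was the lower substrate among the 5 with an unadjusted p under 0.05. Fast fibre markers, which include Myl1, had 10 of 11 genes higher, slow fibre markers, which include Myl2, had 8 of 9, and their part in the substrate values was not tested.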

How the data were processed

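Total RNA of 8 soleus samples, 200 ng each, was labelled with Cy3 and hybridised to Agilent mouse arrays, per the labels. The deposited spot intensity values were already background-subtracted, with probe positions in mm9, per the file headers. Those headers give 11.0.1.1 as the version of the grid placement step, and the submitters' processing notes name Agilent Feature Extraction 11.1. The deposited table holds log2 values and p-values by the authors, whose moderated statistic and log odds columns, scores in the deposited table, were left aside.

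Processed signals were converted to log2, the array's 75th percentile over non-control spots was subtracted, control and outlier-flagged spots were left out, and spots of 1 probe were averaged. Probes well above background on at least 4 of 8 arrays were kept. Groups were compared probe by probe through limma's lmFit and eBayes (version 3.58.1, under R 4.3.3; two-sided, without covariates), adjusted by Benjamini-Hochberg over all 33756 kept probes with a threshold of 0.05. Every adjusted p given without another test is from this limma fit. Exact permutation p-values came from full enumeration of the assignments or pairings, checked on a single probe pair against scipy 1.17.1. The fit was tested on simulated data of 33413 probes. At the same threshold it recovered 50% of probes shifted by a log2 change of 0.5 and 80% of those shifted by 1. Shifts under 0.5 were not tried, and the median difference of the 25 member probes was 0.23. There were 14 false calls. The number of arrays limits the precision.

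The members, lists and tests were chosen with earlier results of these data known. For the members, per-array values are given for each gene's brightest probe and for probes whose groups do not overlap. A_52_P453884 of Foxo1 and A_55_P2106745 of Trim63, which meet neither rule, are shown by choice. From each list, genes past the threshold and up to 4 with the smallest p are named. Alternatives covered background, scaling, filter, variance, array weights, probe summary, replicate block and each array left out. Whether replicate numbers pair samples was checked by correlating deviations from group means.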

Additional observations from a re-analysis of the deposited data

Results flagged for a closer look

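In 2 of 114 groups of 4 arrays, 1 array stood far from the other 3 by Dixon's test, and chance alone flags about 1 group in 20. Fbxo40 at probe A_52_P279557 was 2.83 in P. gingivalis 2, against 2.60 to 2.64 in the other P. gingivalis samples. Cblb at probe A_55_P2935181 was -2.66 in P. gingivalis 4, against -2.08 to -2.03 in the other P. gingivalis samples.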

How the results depend on the processing

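Settings decided whether any member passed. Of the 25 member probes 0 passed in the fit reported above, against 1 (Foxo3 A_65_P08314) with normexp background correction, with the filter on all 8 arrays and with a trended and robust variance. It was 2 with quantile normalization and with no filter (both leading Foxo3 probes). It was 5 with median centring, which shifts the median of all kept probes to 0.15, puts 76.7% of them higher against 51.0%, and calls 13.5% of them. Centring on the median of kept probes, chosen after seeing the data, array weights, the rebuilt table processing, both gene summaries and every left-out array (0 to 0) gave 0. The median difference of 0.23 was 0.084 with normexp, 0.38 with median centring and 0.061 to 0.25 with 1 array left out.

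Pathway probes past the threshold, 1 above, numbered 12 with normexp, 9 with quantile normalization, 74 with median centring, 22 with no filter, 6 with the filter on all 8 arrays, 22 with a trended variance, 2 with centring on kept probes and 3 with array weights. They numbered 0 with the replicate block, the brightest probe or mean per gene, any left-out array (0 to 0), or without saline 1 and P. gingivalis 3. Same-numbered samples deviated together at r = 0.057, -0.050, -0.045 and 0.199 for replicates 1 to 4. With saline samples of other numbers, P. gingivalis 1 gave -0.056 to 0.015 and P. gingivalis 4 gave -0.11 to 0.017. P. gingivalis 2 gave -0.17 to 0.14 and P. gingivalis 3 gave -0.024 to 0.051. These correlations are too few and too mixed to decide whether the numbers pair the samples. With the replicate number as a block, the smallest adjusted p of the members by limma was 0.164 and 0 probes passed in all, against 55 without it.

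Small differences changed sign, and the cause was not tested. Traf6 A_66_P117448 became 0.029 with normexp, 0.13 with quantile normalization and with median centring, 0.17 with the table's processing rebuilt, 0.0078 with centring on kept probes, 0.035 with array weights and 0.0015 without saline 1 and P. gingivalis 3. Nedd4 A_65_P05631 became 0.073 with quantile normalization, 0.088 with median centring, 0.0077 with the rebuilt processing and 0.069 without those 2 arrays. Foxo3 A_55_P2735425 became 0.060 with quantile normalization and 0.046 with median centring, and Fbxo40 A_52_P279557 -0.0022 with quantile normalization. Median centring also turned Fbxo32 (0.045), Cblb A_55_P2738922 (0.054), Nedd4 A_51_P295022 (0.079) and A_55_P2731811 (0.010), and the r of Fbxo32 with Foxo3 (0.059) and Foxo4 (0.12). The mean of all probes turned Traf6 (0.044). Normexp turned the probe distances of Foxo3 A_55_P2506540 (-0.12), Trim63 A_55_P2106745 (-0.014) and Nedd4 A_65_P05631 (-0.075).

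With 1 array left out, differences crossed 0 for Foxo3 A_55_P2735425 (-0.19 to 0.031), Fbxo40 A_52_P279557 (-0.048 to 0.040), Nedd4 A_65_P05631 (-0.22 to 0.027), Traf6 A_66_P117448 (-0.092 to 0.066) and Traf6 A_51_P495259 (-0.012 to 0.22). So did the r of Foxo4 with Fbxo32 (-0.41 to 0.080) and the probe distances of Trim63 A_55_P2106745 (-0.011 to 0.051), Nedd4 A_55_P2731811 (-0.15 to 0.014) and Nedd4 A_65_P05631 (-0.14 to 0.10). Signal over background limits the dimmest probes, above all Traf6 A_55_P2151689.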
